A study of Mus musculus with 33 samples.

Results

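Class IIa histone deacetylases and MEF2 factors form a repressor and activator pair. The 7 genes described here are Hdac4, Hdac5, Hdac7 and Hdac9, which encode class IIa deacetylases, and Mef2a, Mef2c and Mef2d, which encode MEF2 transcription factors. They are 7 of 14664 genes in a table of RNA-seq read counts, and all 7 passed the filter on low counts. They were chosen by a list drawn up with their read counts in knockout and wild type already known, so their changes between the genotypes are a description. Where a fit over all genes called a member, the call is given as part of that description and supports nothing, since the same counts chose the member.

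The study asked which genes of the embryonic ventral forebrain depend on the homeodomain factors DLX1 and DLX2. RNA came from ganglionic eminences, the swellings that produce striatal neurons and GABAergic interneurons, of CD1 mouse embryos at e13.5. There were 4 wild-type libraries and 4 libraries of Dlx1/2-/- embryos, which the sample labels call Dlx1/2 knock-out, and no treatment is named for either group. Per the labels each genotype was made up of 4 embryos, 2 of them male, but the sex of each library is not given, and no label ties a replicate number to a litter or day. The labels give no detail of the mutant allele, so the embryos are described only as lacking the pair of factors.

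As background, class IIa deacetylases have little catalytic activity of their own and act mainly as signal-dependent corepressors. Their N-terminal part binds MEF2 factors on DNA, and they bring in the NCoR/SMRT complex with the class I enzyme HDAC3. Calcium-dependent and related kinases phosphorylate them, 14-3-3 proteins then hold them outside the nucleus, and MEF2 is left free to activate its targets. HDAC9 is also made as a short form, MITR or HDRP, that lacks the deacetylase domain. MEF2C acts in the differentiation of cortical and striatal neurons and of parvalbumin interneurons, and MEF2 and HDAC7 also act in endothelium and muscle.

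Of the 7 genes, Hdac9 was higher and Mef2c lower in the knockout, and these were the members whose changes stood out. Their RefSeq promoter windows are therefore shown, each running from 250 bases before an annotated start to 50 bases after it (build GRCm38.p6, written 5′ to 3′ on the gene's strand). Capitals mark matches on either strand to a relaxed MEF2 pattern and to the homeodomain cores TAATTA and TAATTG, the kind of site DLX proteins bind. The relaxed pattern is CTA and TAG with any 4 bases between them, whereas the MEF2 core has only A or T there.
Hdac9 start 1, chr12:34917046-34917345, minus strand: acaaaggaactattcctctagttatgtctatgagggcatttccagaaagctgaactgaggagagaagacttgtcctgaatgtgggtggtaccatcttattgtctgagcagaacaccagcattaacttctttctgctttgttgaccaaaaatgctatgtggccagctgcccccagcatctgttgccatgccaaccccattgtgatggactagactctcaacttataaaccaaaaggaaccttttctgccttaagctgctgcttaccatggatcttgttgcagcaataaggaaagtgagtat
Hdac9 start 2, chr12:34528840-34529139, minus strand: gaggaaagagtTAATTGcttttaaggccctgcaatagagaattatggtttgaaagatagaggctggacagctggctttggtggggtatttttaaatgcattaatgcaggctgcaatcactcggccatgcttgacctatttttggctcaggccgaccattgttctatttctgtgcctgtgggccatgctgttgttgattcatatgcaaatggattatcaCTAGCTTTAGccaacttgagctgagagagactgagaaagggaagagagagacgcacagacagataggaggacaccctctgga
Mef2c start 1, chr13:83503784-83504083, plus strand: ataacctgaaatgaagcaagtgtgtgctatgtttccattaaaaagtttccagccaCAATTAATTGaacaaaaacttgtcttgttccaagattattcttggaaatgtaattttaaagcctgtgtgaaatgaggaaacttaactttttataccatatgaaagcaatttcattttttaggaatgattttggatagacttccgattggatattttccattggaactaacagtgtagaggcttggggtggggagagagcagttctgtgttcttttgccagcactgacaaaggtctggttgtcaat
Mef2c start 2, chr13:83523406-83523705, plus strand: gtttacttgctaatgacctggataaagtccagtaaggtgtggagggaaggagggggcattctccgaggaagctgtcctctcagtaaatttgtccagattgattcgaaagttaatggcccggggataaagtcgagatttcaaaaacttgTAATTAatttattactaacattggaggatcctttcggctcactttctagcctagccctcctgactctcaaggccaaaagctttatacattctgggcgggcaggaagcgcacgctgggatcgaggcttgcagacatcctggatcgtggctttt
Mef2c start 3, chr13:83573357-83573656, plus strand: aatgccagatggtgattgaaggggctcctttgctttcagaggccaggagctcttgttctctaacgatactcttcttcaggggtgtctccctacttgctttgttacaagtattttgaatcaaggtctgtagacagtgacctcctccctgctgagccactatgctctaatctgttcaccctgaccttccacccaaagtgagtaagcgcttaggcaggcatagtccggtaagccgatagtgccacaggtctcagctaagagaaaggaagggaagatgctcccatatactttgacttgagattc
The window of Hdac9 start 2 held a TAATTG match at position −239 and a match to the relaxed MEF2 pattern at −32 from the start. The middle bases of that match, GCTT, are not all A or T, so it is not a MEF2 core. The window of Mef2c start 1 held TAATTG matches at −195 and −191, on opposite strands and overlapping each other, and that of start 2 held TAATTA at −102. The windows of Hdac9 start 1 and Mef2c start 3 held none of these letters. Among 32851 promoter windows of this length, 3.69% held the relaxed MEF2 pattern, 5.29% held TAATTA and 8% held TAATTG. Among the other members, the Hdac5 and Mef2a windows also held the relaxed pattern, at −20 and −2, with only A or T in the middle. The Hdac4 window held TAATTG at −107. In all, 6 of 13 windows of the 7 genes held a match, and none of the 4 Hdac7 windows nor the Mef2d window did. Any of the 3 motifs was held by 15.5% of all windows. These background shares are not matched for base composition. The windows of Hdac9 and Mef2c held from 35.7 to 48.3% G or C bases, against a median of 52.7% over all windows. Those of Hdac4, Hdac5 and Mef2a, each with a match, lay above the median, at 68, 60.7 and 62.3%. A match is a description of the letters and not a site of binding. The counts are per gene, so which start was used in the eminences is not known from them.

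Levels are given as CPM, the deposited read counts scaled to the size of each library with TMM factors, and as mean ± SD over 4 libraries. Changes are log2 of knockout over wild type with their standard error, from edgeR's quasi-likelihood fit over 14510 genes. In that fit 85 genes (0.586%) were called higher and 130 (0.896%) lower at an adjusted p under 0.05, together 1.48% of the genes tested. With the replicate number as a block the fit called 322 (2.22%) and 313 (2.16%), together 4.38%. The libraries held between 14.4 and 117 M counts, and each member was covered by at least 548 reads in each genotype. Dlx1 fell to 18.9% and Dlx2 to 5.79% of the wild-type level, so no library went against its label at the targeted genes. The labels do not tie each library to 1 embryo, so p-values measure the spread between these libraries, which may be technical.

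Hdac9 was higher in the knockout libraries. The wild-type libraries, in the order of their replicate numbers, had 24.3, 23.7, 17.95 and 20.7 CPM of Hdac9, and the knockout libraries had 33.7, 31.7, 31.3 and 32.0 CPM. Every knockout value lay above every wild-type value, and the wild-type libraries were the more spread out, with replicates 3 and 4 the lowest. The means were 21.7 ± 2.94 CPM and 32.2 ± 1.04 CPM (SD, n = 4), a 1.48-fold difference or 0.57 on the log2 scale (SE 0.11). Reads per gene do not separate the long form of Hdac9 from the short form without the deacetylase domain.

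The other class IIa genes showed no such separation between the genotypes. Hdac5, the member with the most reads of the class, had 118, 118, 117 and 158 CPM in the wild-type group and 131, 127, 124 and 123 CPM in the knockout group. Wild-type replicate 4 stood above all other libraries, while the other wild-type libraries lay below all knockout libraries. The log2 change of Hdac5 was −0.01 (SE 0.11) and turned to 0.11 without wild-type replicate 4.

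Hdac4, a regulator of chondrocyte and muscle genes and of neuronal survival, had 18.02, 18.4, 22.3 and 22.4 CPM in wild type. In knockout it had 17.1, 16.3, 16.9 and 22.8 CPM. The groups overlapped, because knockout replicate 4 exceeded all wild-type libraries, and the log2 change was −0.15 (SE 0.13).

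Hdac7, which keeps vessels intact in the embryo, had 22.1, 22.8, 26.3 and 28.6 CPM in the wild-type libraries and 24.8, 23.5, 30.7 and 26.6 CPM in knockout. These groups overlapped too, at a log2 change of 0.08 (SE 0.12). In both genotypes replicates 3 and 4 were above replicates 1 and 2. The same order held for the summed level of 12 endothelial markers, with 186 and 187 CPM in wild-type replicates 2 and 1 and 237 and 251 CPM in replicates 4 and 3. In knockout these markers summed to 189 and 175 CPM in replicates 1 and 2 and to 232 and 231 CPM in replicates 3 and 4. The step was not particular to endothelial genes. Hdac6 had 99.9, 86.0, 149 and 137 CPM in wild type and 93.7, 94.7, 171 and 158 CPM in knockout. Nor did every endothelial marker follow it, since Egfl7 had 31.5, 33.3, 26.6 and 27.6 CPM in wild type. The part of endothelial RNA in the Hdac7 values was not tested.

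Mef2c was lower in the knockout libraries. The wild-type libraries had 163, 162, 160 and 149 CPM of Mef2c and the knockout libraries 108, 111, 130 and 102 CPM. All knockout values lay below all wild-type values, with knockout replicate 3 the nearest to wild type. The means were 158.5 ± 6.29 CPM and 113 ± 12.3 CPM (SD, n = 4), so the knockout level was 71.1% of wild type, a log2 change of −0.49 (SE 0.09). In bulk tissue, fewer cells that express Mef2c and less Mef2c RNA in each cell cannot be told apart.

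The remaining MEF2 genes overlapped between the genotypes. Mef2a had 60.7, 61.3, 50.4 and 44.7 CPM in the wild-type libraries and 52.4, 59.1, 45.9 and 45.5 CPM in knockout. Its values went with the replicate number more than with the genotype, since replicates 1 and 2 exceeded replicates 3 and 4 in both groups, and its log2 change was −0.10 (SE 0.13). Mef2d was the member with the fewest reads, at 4.10, 4.16, 3.86 and 5.04 CPM in the wild-type libraries. The knockout libraries had 3.98, 4.16, 4.68 and 4.27 CPM of Mef2d. Its log2 change was −0.01 (SE 0.13), with no separation between the groups. Mef2b, the fourth gene of the family, was not analysed here.

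**Figure D1:**
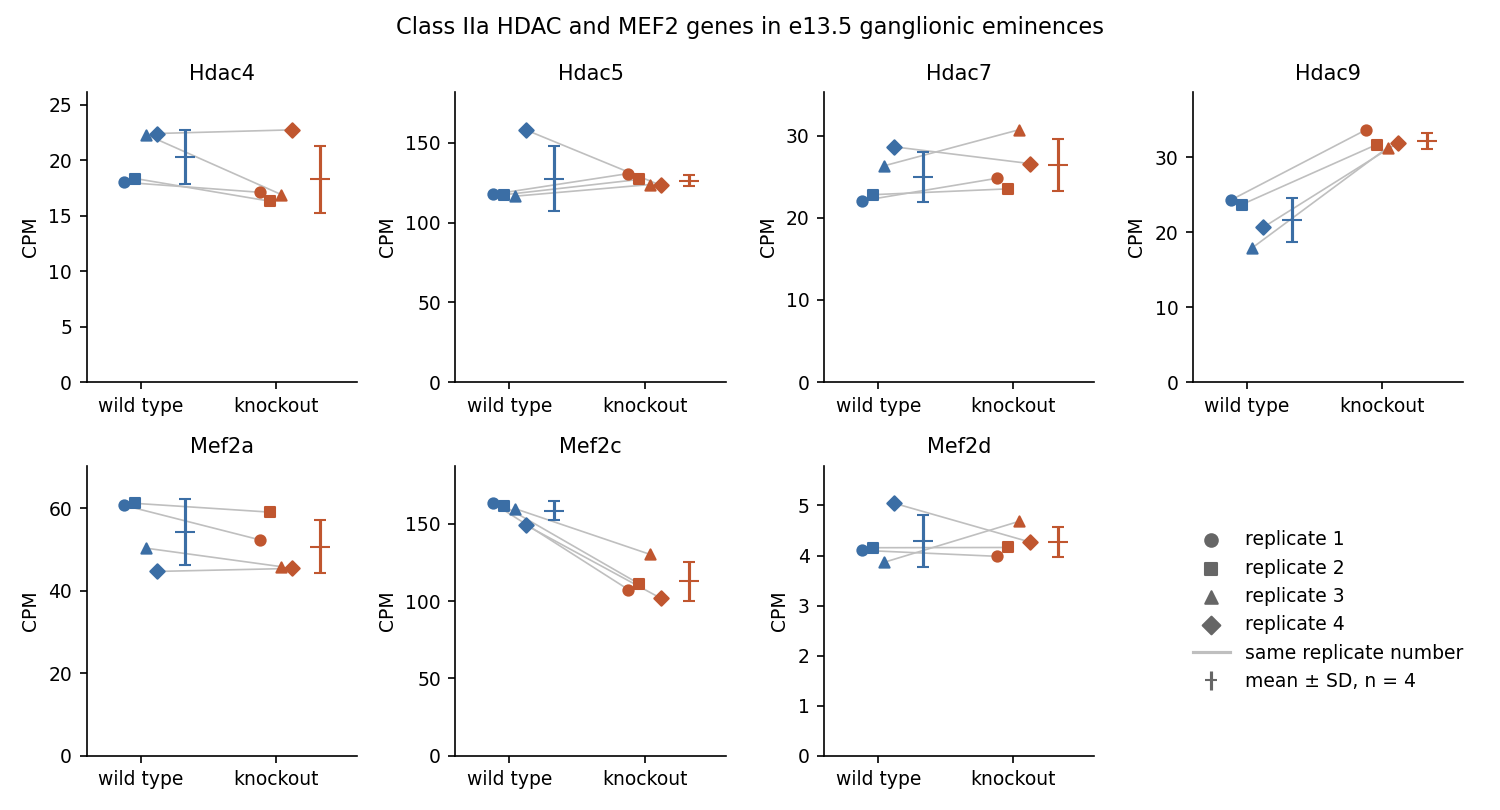
Level of each gene in CPM (vertical axis, from 0) in the 4 wild-type and 4 knockout libraries, with symbols for replicate numbers, lines between libraries of the same number, and bars for mean ± SD. Hdac9 lies higher and Mef2c lower in all 4 knockout libraries, and the other genes overlap between the groups.

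Counts over the 7 genes describe the contrast from which the genes were listed. The edgeR fit called 1 member higher, Hdac9, where 0.586% of all genes were higher, and 1 member lower, Mef2c, where 0.896% were lower, and nothing is read from this. With the replicate block the same 2 members were among the called genes, where 2.22% of all genes were higher and 2.16% lower. The same members were those whose libraries did not overlap between genotypes, as was the case for 5.98% of all genes tested (2.89% higher and 3.09% lower in knockout). By the size of its change without regard to sign, Hdac9 stood at percentile 95.6 and Mef2c at percentile 94.2 of all genes. Hdac4 followed at 70.5, and Hdac5 and Mef2d stood at 10.3 and 8. The authors' deposited table lists the same members at an FDR under 0.05, with log2 changes of 0.57 for Hdac9 and −0.495 for Mef2c, and 2.24% of its genes pass that limit.

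The direction of these changes was the same in each pair of libraries with one replicate number. This follows from the lack of overlap between the genotypes and would hold for any pairing. Hdac9 was higher in the knockout by 0.47, 0.42, 0.80 and 0.63 on the log2 scale in pairs 1 to 4 (log2 CPM with a prior count of 2). Mef2c changed by −0.60, −0.54, −0.30 and −0.55 in the same pairs. Within replicates 1 and 2 the fitted change was 0.45 for Hdac9 and −0.57 for Mef2c, and within replicates 3 and 4 it was 0.71 and −0.41. Without 1 library at a time the change of Hdac9 ran from 0.49 to 0.63 and that of Mef2c from −0.57 to −0.45. With the replicate number as a block the changes were 0.57 (SE 0.08) and −0.50 (SE 0.06). As a description, Hdac9 was not among the called genes in 7 of 8 fits without 1 library, all but that without wild-type replicate 1. Mef2c was not among them in 6 of the 8, the exceptions being the fits without wild-type replicate 4 or knockout replicate 3, nor in replicates 3 and 4 alone. All these fits use counts from which the genes were listed and are no independent check.

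**Figure D2:**
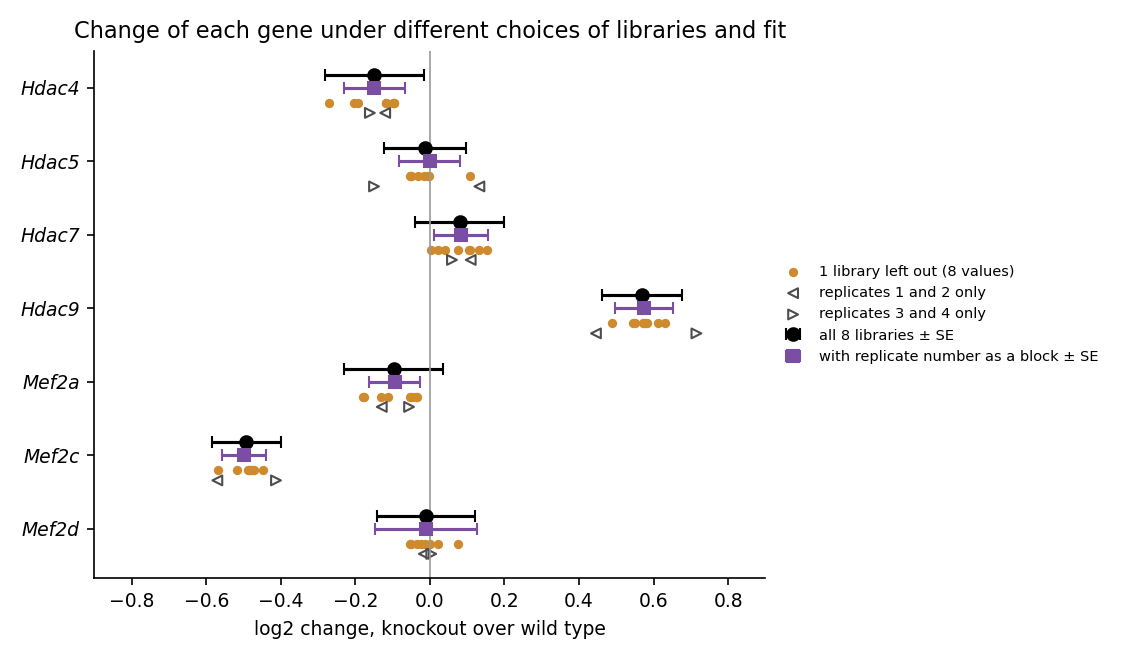
Log2 change of each gene, knockout over wild type (horizontal axis), with all 8 libraries, with the replicate number as a block, with 1 library left out at a time, and within replicates 1 and 2 or 3 and 4. The bars are standard errors, and Hdac9 stays between 0.45 and 0.71 and Mef2c between −0.57 and −0.41 in the settings drawn.

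The make-up of each family was read within libraries, which does not depend on how libraries are scaled to each other. Hdac9 took 13.3, 13.0, 9.80 and 8.99% of the reads of the 4 class IIa genes in the wild-type libraries. In the knockout libraries it took 16.3, 16.0, 15.4 and 15.6%, above all wild-type values. The summed level of the class was 194 ± 23.7 CPM in the wild-type group and 203 ± 3.36 CPM in the knockout group (SD, n = 4). The wild-type sums, in the order of replicate numbers, were 182, 182, 183 and 230 CPM. The knockout sums ran from 199 to 206 CPM. Only wild-type replicate 4 lay above the knockout sums, and the other wild-type sums lay below all of them.

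Mef2c took 71.6, 71.2, 74.7 and 75.0% of the reads of the 3 MEF2 genes in wild type and 65.6, 63.7, 72.0 and 67.2% in knockout. These shares overlapped, since knockout replicate 3 exceeded wild-type replicates 1 and 2. The Mef2a share was 24.9 ± 2.25% in wild type and 30.3 ± 3.65% in knockout and also overlapped, while the level of Mef2a was not higher in knockout. The summed level of the MEF2 genes was 217 ± 13.6 CPM in the wild-type group and 168 ± 12.8 CPM in the knockout group. The lowest wild-type sum, 199 CPM, lay above the highest knockout sum, 181 CPM. Shares of reads also reflect transcript length, so they do not rank the genes by number of transcripts.

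**Figure D3:**
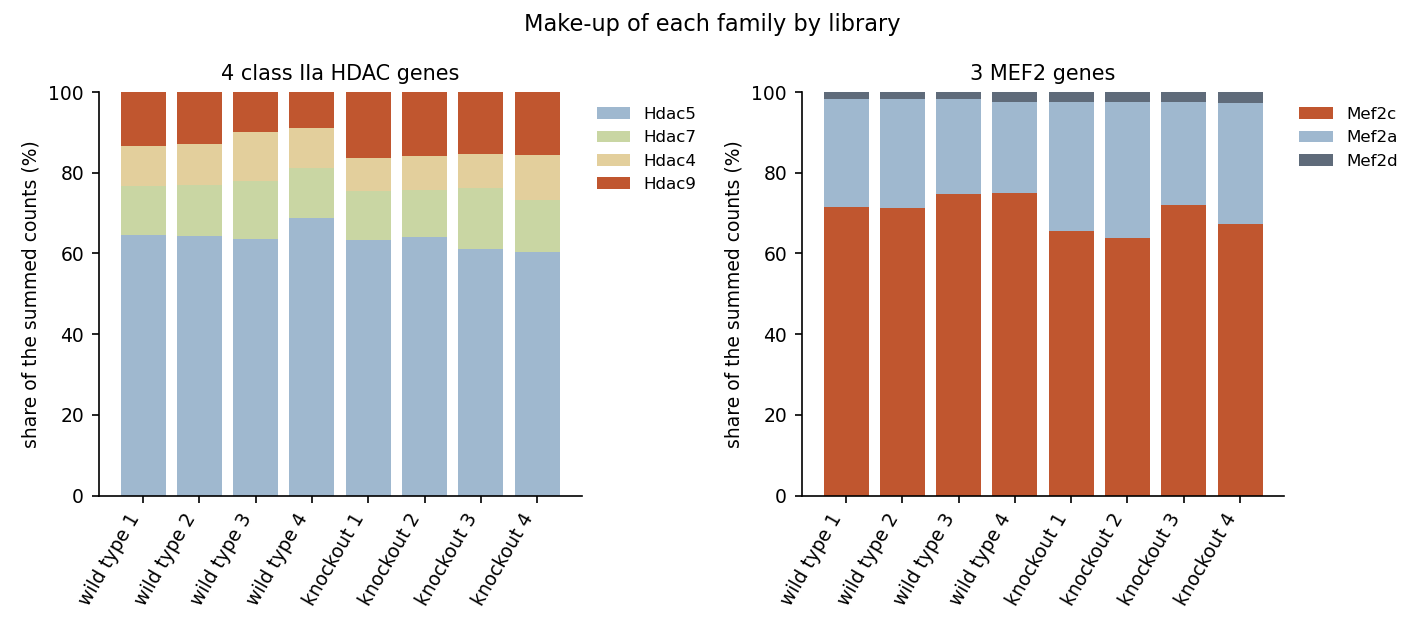
Share of each gene in the summed reads of its family (vertical axis, %) in each library. The Hdac9 share is 15.4% or more in every knockout library and at most 13.3% in wild type.

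None of the 81 tested genes that surround class IIa deacetylases and MEF2 factors was called, in either direction. This was so with edgeR and with DESeq2, and at an unadjusted p under 0.05 the edgeR fit also gave 0. The background over all genes was 1.48% called by edgeR, 3.21% called by DESeq2 and 7.69% at an unadjusted p under 0.05. Their median log2 change was −0.01, against 0.00 for all genes tested, and the median size of change was 0.06 against 0.08. The median standard error of these changes was 0.14 (log2), so small changes of partner genes were not detectable. Hdac9, at 0.57 (SE 0.11), was itself not called in 7 of 8 fits without 1 library. A true change of that size in a partner gene could therefore also be missed. By the fitted values 1 of the 81 partner genes, Fos, changed by more than Mef2c.

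The other deacetylases had small changes. The 4 class I genes ranged from −0.03 to 0.11 on the log2 scale, with Hdac2, a subunit of several repressor complexes, averaging 686 ± 54.7 CPM over the wild-type libraries and 675 ± 65.2 CPM over the knockout libraries. The 3 genes of classes IIb and IV ranged from 0.11 to 0.20, with the tubulin deacetylase gene Hdac6 at 118 ± 29.9 CPM and 129 ± 41.1 CPM. The 7 sirtuin genes, which encode NAD-dependent deacetylases, ranged from −0.17 to 0.12, and Sirt1 was at 60.1 ± 5.49 CPM and 63.2 ± 2.53 CPM.

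The complex through which class IIa proteins repress showed no called member among 6 genes. Tbl1xr1, which encodes a subunit that exchanges corepressors, averaged 201 ± 21.5 CPM over the wild-type libraries and 184 ± 12.2 CPM over the knockout libraries, and Hdac3, its deacetylase, had a log2 change of −0.01. This set and the class I set share Hdac3.

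The proteins that move class IIa proteins between nucleus and cytoplasm were likewise not called. The 23 kinase genes were Stk11 and genes of the CaMK, protein kinase D, salt-inducible, MARK and AMPK families. They had a median log2 change of 0.00 and a range from −0.21 to 0.24. Mark3, the most abundant of them by reads, was at 344 ± 30.4 CPM and 354 ± 32.1 CPM. All 6 tested genes of 14-3-3 proteins had log2 changes below 0, between −0.13 and −0.05, and none passed the test. Ywhag averaged 435 ± 149 CPM and 399 ± 95.9 CPM. The 8 phosphatase genes of calcineurin and PP2A ranged from −0.06 to 0.06, and Ppp2ca, a catalytic subunit, was at 679 ± 101 CPM and 652 ± 108 CPM. The 5 genes of nuclear export and other binding partners ranged from −0.03 to 0.06, with the exportin gene Xpo1 at 642 ± 93.0 CPM and 631 ± 78.4 CPM.

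On the MEF2 side, the 8 genes of coactivators and activating kinases ranged from −0.18 to 0.08. Mapk14, the p38 kinase that phosphorylates MEF2 proteins, averaged 65.8 ± 5.21 CPM in the wild-type libraries and 66.8 ± 12.9 CPM in the knockout libraries. Of 14 genes described as MEF2 targets in neurons, 12 were tested, and none was called. Their log2 changes ran from −0.59 for Fos to 0.27 for Jun, with a median of −0.02. Their summed level ran from 529 to 568 CPM in the wild-type libraries and from 578 to 631 CPM in the knockout libraries. The sums did not overlap, although no single gene passed the test. They are weighted towards abundant genes such as Pcdh10, and the median change shows no general rise of the targets. Pcdh10, a protocadherin gene linked to synapse removal downstream of MEF2, was at 204 ± 14.8 CPM and 231 ± 22.8 CPM. Fos was low, at under 1 CPM in both genotypes, so its value is imprecise.

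**Figure D4:**
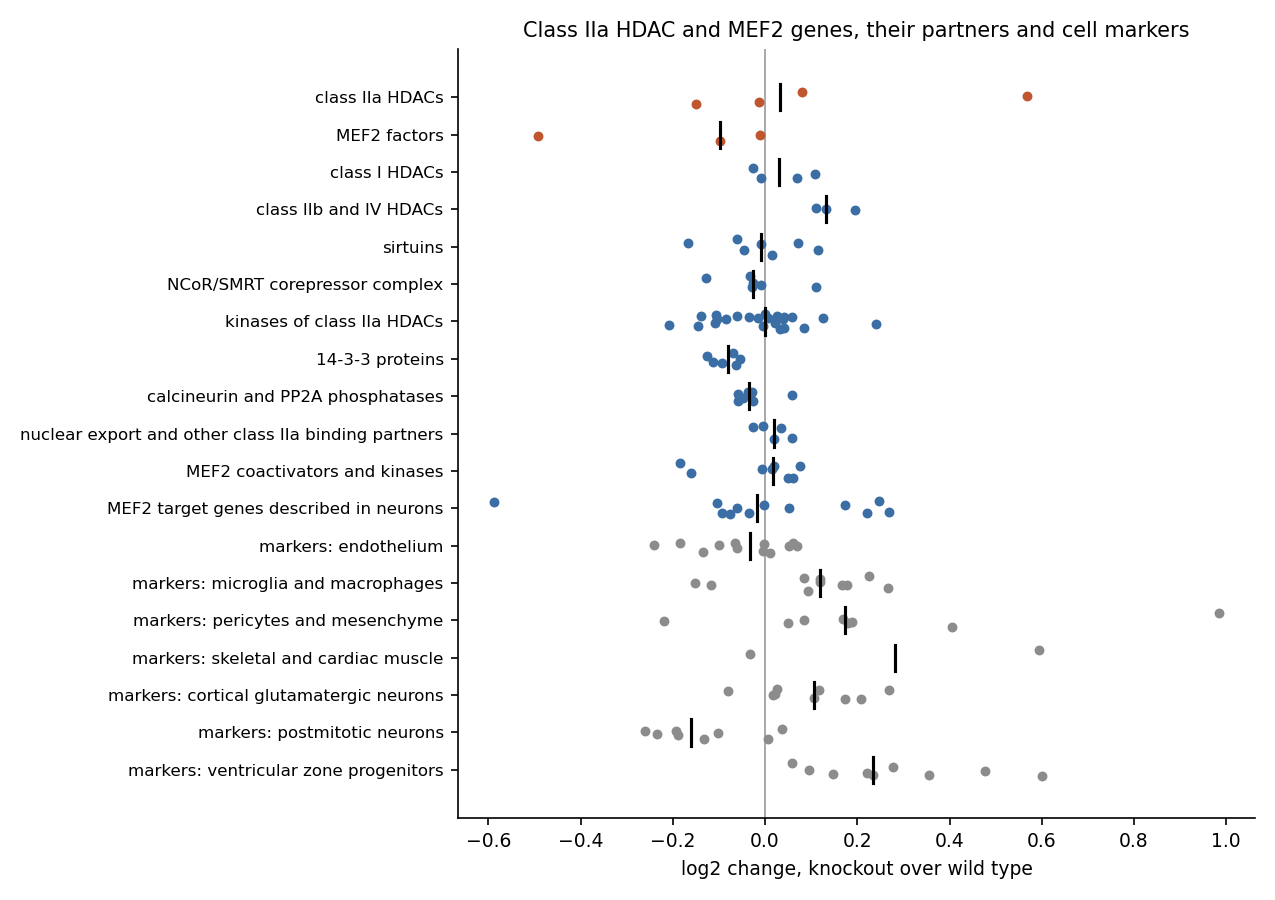
Log2 change, knockout over wild type (horizontal axis), of each tested gene in the class IIa HDAC and MEF2 families (orange), the partner lists (blue) and the cell marker lists (grey), with a black line at the median of each list. Hdac9 at 0.57 and Mef2c at −0.49 lie apart from the other members of their families.

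Markers of some of the cell types in which the members are known to act were read beside them. No list of striatal or interneuron markers was among these. The 8 markers of postmitotic neurons summed to between 5083 and 5569 CPM in the wild-type group and between 4659 and 5093 CPM in the knockout group. The knockout mean was 90.4% of wild type, where that of Mef2c was 71.1% by the fitted change. These markers cover neurons of all types, so Mef2c was not compared with the neurons that express it. Gad1 and Drd1a, named below as genes most like Mef2c, fell further, with log2 changes of −1.35 and −1.25. No neuron marker was called, and 1 of the 8 was called lower with the replicate block, where 2.16% of all genes were lower. Tubb3, a neuronal tubulin gene, was at 1836 ± 448 CPM and 1611 ± 283 CPM. A sum is weighted towards such abundant genes. The log2 changes of the single neuron markers ran from −0.26 to 0.04, with a median of −0.16.

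The 9 markers of ventricular zone progenitors summed to between 1972 and 2455 CPM in the wild-type group and between 2520 and 3086 CPM in the knockout group. All knockout sums were above all wild-type sums, and the knockout mean was 123% of wild type, where Hdac9 reached 148% by the fitted change. None of these markers was called, and 3 of the 9 were called higher with the replicate block, where 2.22% of all genes were higher. Fabp7, a radial glia gene, was at 1004 ± 140 CPM and 1284 ± 281 CPM and weighs heavily in the sum. The log2 changes of the single progenitor markers ran from 0.06 to 0.60, with a median of 0.23. The part of these differences in summed neuron and progenitor markers in the Mef2c and Hdac9 values was not tested.

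Markers of non-neural cells overlapped between the genotypes. Endothelial markers summed to between 186 and 251 CPM in the wild-type group and between 175 and 232 CPM in the knockout group, with Pecam1 at 39.7 ± 5.70 CPM and 40.0 ± 5.73 CPM. The 10 microglia and macrophage markers summed to between 73.1 and 86.7 CPM and between 73.4 and 87.6 CPM. The 8 tested pericyte and mesenchyme markers summed to between 66.9 and 84.2 CPM and between 75.6 and 89.4 CPM. Of 8 muscle markers 2 were tested, summing to at most 3.81 CPM in any library. The 9 markers of cortical glutamatergic neurons, a population outside the eminences that also expresses Mef2c, summed to between 485 and 590 CPM in the wild-type group and between 513 and 680 CPM in the knockout group. Their sums overlapped and the knockout mean was 113% of wild type, while Mef2c was lower. Of 58 tested markers in all lists edgeR called 0, DESeq2 called 2 progenitor genes, Hes5 and Gsx2, and the same 2 had an unadjusted p under 0.05 with edgeR. Over all genes DESeq2 called 3.21%, and 7.69% had such a p. The DESeq2 count over the 58 markers pooled is near that share, and nothing is read from either count. Myod1, Myog and Myf5, which define muscle, were not analysed here, and Actc1 was at 0 CPM in knockout replicate 3 and at most 0.711 CPM elsewhere.

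**Figure D5:**
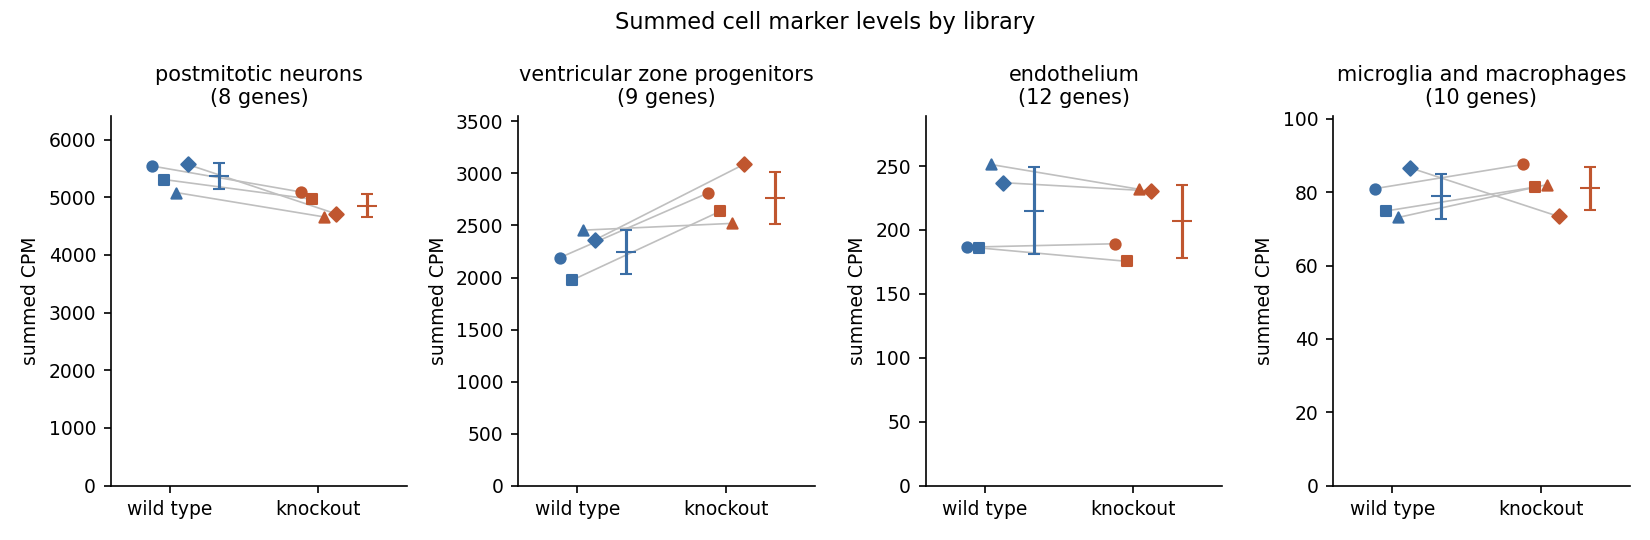
Summed level of 4 marker lists in CPM (vertical axis, from 0) in each library, with symbols for replicate numbers as in the plot of the 7 genes and bars for mean ± SD. Progenitor sums do not overlap between the genotypes, neuron sums overlap at 5083 to 5093 CPM, and endothelial sums are higher in replicates 3 and 4 of both genotypes.

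The neighbours of the members on their chromosomes were read next. The nearest tested genes, 2 on each side of each member in the order of the GRCm38.p6 table, gave 28 genes with log2 changes from −0.35 to 0.42. The edgeR fit called 0 of them and DESeq2 called 1, Ttc23 beside Mef2a, where DESeq2 called 3.21% of all genes. An unadjusted p under 0.05 with edgeR was found for 3 (Ahr, Lrrc28 and Ttc23), where 7.69% of all genes had one. Beside Hdac9 on chromosome 12, Twistnb had a log2 change of −0.09 (SE 0.16) and Snx13 one of 0.01 (SE 0.14). Beyond these, Efcab10 was at −0.15 (SE 0.51) and Ahr, the aryl hydrocarbon receptor gene, at −0.35 (SE 0.14). Beside Mef2c on chromosome 13, the long noncoding gene C130071C03Rik was at 0.12 (SE 0.12) and the next row, that of the microRNA gene Mir9-2, at 0.10 (SE 0.17). How the authors counted reads where such genes overlap is not given in the sources here, so the values of this pair are uncertain. On the other side Cetn3 was at −0.06 (SE 0.17) and Mblac2 at −0.16 (SE 0.11). The 4 changes beside Mef2c were between −0.16 and 0.12, where Mef2c itself was at −0.49.

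The genes whose levels over the 8 libraries were most like those of Hdac9 and of Mef2c were found by Pearson's r of log2 CPM. For Hdac9 they were Pgpep1 (r = 0.97), Ypel2, Tspan11, Diap2 and Cdh7 (r = 0.96), all higher in the knockout mean. Cdh7, a cadherin gene, averaged 18.6 CPM in the wild-type libraries and 34.3 CPM in the knockout libraries, with an edgeR adjusted p of 0.00298, and the other 4 did not pass the test. For Mef2c they were Gad1 (r = 0.98), which makes GABA, the dopamine receptor gene Drd1a, the serotonin receptor gene Htr7, the kainate receptor gene Grik1 and Med12l (r = 0.97). Gad1 averaged 122 CPM in the wild-type libraries and 48 CPM in the knockout libraries, and Drd1a 5.41 and 2.3 CPM; edgeR gave adjusted p-values of 0.000452 and 0.00361. The 8 libraries fall into 2 genotypes, so a gene that differs between them in the same direction has a high r by that alone, and the order is a description.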

How the data were processed

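RNA-seq counts of 8 libraries were used. The authors deposited raw read counts per gene symbol, per the file headers, made with bcl2fastq and STAR 2.4.2a on build mm9, per the submitters' processing notes. Libraries were stranded total RNA after ribosomal RNA removal, per the labels' protocols, although another label calls the molecule polyA RNA. For the counting tool and strand setting: not given in the sources used here. Log2 changes, p-values with their FDR and a likelihood ratio score from the authors' own comparison were deposited in the same table. Counts were tested with edgeR 4.0.16 (R 4.3.3): scaling by TMM, low counts removed by filterByExpr (minimum 10), quasi-likelihood test, two-sided, Benjamini-Hochberg adjustment over 14510 genes. DESeq2 1.42.0, RLE scaling, no filter, single libraries left out and replicates 1 and 2 or 3 and 4 alone were alternatives. The procedure was tested on simulated data.

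The members and lists were chosen with earlier results of these data known. Named are all members, the called genes of each list or otherwise its most abundant, the nearest 2 tested genes on each side, the 5 genes most like Hdac9 and Mef2c, and Dlx1 and Dlx2. Hdac3, Fos, Jun, Hes5, Gsx2, Egfl7, Stk11 and the muscle markers were named after their values were seen. Replicate numbers were taken as pairs: deviations of same-numbered libraries correlated at 0.15, 0.29, 0.37 and 0.48 over genes, although wild-type replicate 1 correlated better with knockout replicate 2 (0.603) and wild-type replicate 2 with knockout replicate 1 (0.394). Peaks in mm9 coordinates were not used, for want of an annotation of that build.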

Additional observations from a re-analysis of the deposited data

Results flagged for a closer look

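Each of the 7 genes was checked for a library far from the other 3 of its genotype, in 14 groups of 4 libraries, where chance flags about 1 in 20. Hdac5 in wild type had replicate 4 at 158 CPM, with the next library at 118 CPM, a gap that took 0.97 of the range of the group. Hdac4 in knockout had replicate 4 at 22.7 CPM and the next library at 17.1 CPM, a gap of 0.873 of the range. Both gaps exceeded the 95% critical value of Dixon's test for 4 samples.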

How the results depend on the processing

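Of 14 alternatives, none changed the count of 0 called partner genes or the sign of the log2 change of Hdac9, Mef2c, Hdac4, Hdac7 or Mef2a. Genes called higher and lower numbered 85 and 130. With DESeq2 they numbered 230 and 241, with the replicate block 322 and 313, and in replicates 1 and 2 only 178 and 202. Without 1 library they ranged from 50 to 66 and from 92 to 121. The 2 members called became 1 in replicates 3 and 4 only, and between 0 and 1 without 1 library. The replicate block changed no call of a member or a partner gene. Hdac5, at −0.01, turned to 0.13 in replicates 1 and 2 only, and ranged from −0.0543 to 0.1082 without 1 library, above 0 only without wild-type replicate 4. Mef2d, at −0.01, ranged from −0.0548 to 0.0754 without 1 library, above 0 without wild-type replicate 4 (0.0754) and without the first (0.0223) or the second (0.0011) knockout library, and was 0.0036 in replicates 3 and 4 only. The causes were not tested. With 4 libraries a genotype and a median standard error of 0.14 (log2), small changes of partner genes were not detectable. Changes as large as those of Hdac9 and Mef2c could also be missed, since these members lost their call in most fits without 1 library.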
